A study of Homo sapiens with 6 samples.

Results

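Matrix metalloproteinases (MMPs) and the tissue inhibitors of metalloproteinases (TIMPs) were followed in LX-2 cells, an immortalised human line derived from hepatic stellate cells. The 10 genes were chosen by symbol, namely MMP1, MMP2, MMP3, MMP9, MMP10, MMP14, MMP15, TIMP1, TIMP2 and TIMP3, out of 24789 genes and assembled loci in the table. In one group the cells received an siRNA against AEBP1, and in the other they received a scrambled siRNA. Both siRNAs were used at 50 nM, RNA was taken after 48 hours, and each group had 3 libraries. Both groups were wild-type LX-2 cells grown in serum and carried through the same lipid transfection, so every library comes from 1 cell line. The labels do not say whether the 3 libraries of a group came from separate cultures, so p-values here reflect only how far these libraries scatter, and that scatter can be technical.

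MMPs are zinc-dependent enzymes that are made as inactive precursors and, once activated, cut collagens and other matrix proteins. TIMPs bind the active site of MMPs and block them, so the balance of the families sets how much matrix is broken down. Activated stellate cells are a main source of scar matrix in injured liver, and they are also known for making TIMP1 and TIMP2 together with several MMPs.

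Total counts were 34433510 to 41600600 in the AEBP1 siRNA libraries and 41330380 to 49432960 in the scrambled siRNA libraries. The targeted gene did not follow the labels. AEBP1 had 29.7, 27.7 and 48.3 CPM (counts scaled to a library of 1000000) in AEBP1 siRNA 1, 2 and 3 as labelled, against 53.6, 48.7 and 25.1 CPM in scrambled 1, 2 and 3. The library labelled AEBP1 siRNA 3 was thus just below scrambled 2 and far above the other AEBP1 siRNA libraries, while the library labelled scrambled 3 had the lowest value of all 6. Over all genes the library most like each of them also came from the other group, and this held for all 6 libraries. For scrambled 1 and scrambled 2 the most similar library was AEBP1 siRNA 3, and for AEBP1 siRNA 2 it was scrambled 3. By the chi-square of the counts per degree of freedom, where a lower value means more alike, AEBP1 siRNA 3 was at 83.5 and 22.6 to AEBP1 siRNA 1 and 2, against 12.5, 9.21 and 26.7 to scrambled 1, 2 and 3. Scrambled 3 was at 93.0, 7.76 and 26.7 to AEBP1 siRNA 1, 2 and 3, against 35.2 and 26.2 to scrambled 1 and 2. Scrambled 1 and 2 were at 14.1 to each other, above their 12.5 and 9.21 to AEBP1 siRNA 3. AEBP1 siRNA 1 was at 61.8 to scrambled 1, against 81.3 and 83.5 to AEBP1 siRNA 2 and 3. Whether the labels of these libraries were exchanged was not tested; groups were kept as labelled, and every direction given here rests on the labels. The library labelled AEBP1 siRNA 1 stood apart on the first principal component, at 65.9 where the others lay between -17.3 and -5.74. Of 18 stellate cell markers, VIM averaged 1204 CPM in AEBP1 siRNA libraries and 1131 CPM in scrambled libraries. COL1A1 averaged 1482 and 1543 CPM in the same order, SPARC 582 and 606 CPM, and TAGLN 158 and 149 CPM. LHX2, PDGFRB, COL3A1 and NGFR lay between 19.5 and 60.2 CPM, and COL1A2 and ACTA2 between 2.91 and 5.72 CPM. HAND2 and PDGFRA lay between 0.319 and 1.56 CPM. LUM, DCN, GFAP and RELN had 17, 11, 43 and 125 counts over all 6 libraries. LRAT was at 0 counts in every library and DES stayed at or below 0.183 CPM, so a marker of quiescent stellate cells was not detected and desmin was close to the detection limit. Of 10 leukocyte markers, PTPRC had 6 counts over all 6 libraries and TYROBP had 0. The summed level of that list was 22.5 to 26.3 CPM in AEBP1 siRNA libraries and 19.3 to 24.6 CPM in scrambled libraries. Most of it came from CD68. Summed epithelial and cholangiocyte markers were at 226 to 295 CPM in AEBP1 siRNA libraries and 220 to 241 CPM in scrambled libraries, most of it KRT18. Endothelial markers were at 76.0 to 90.9 and 83.4 to 89.1 CPM in the same order, most of it FLT1. Hepatocyte markers were at 6.19 to 8.16 and 6.07 to 9.59 CPM, most of it SERPINA1.

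Promoter sequence was available in the RefSeq table (build GRCh38.p14) for 5 of the 10 genes, namely MMP10, MMP14, MMP15, TIMP1 and TIMP3. MMP1, MMP2, MMP3, MMP9 and TIMP2 were not matched. Promoters of 3 of the 5 are shown because they are the most abundant of the 10 genes per transcript length (TIMP1), the one that varied least between libraries (MMP14) and the rarest (MMP10). Each line gives the 250 bases before the start of the gene, 5′ to 3′ on the strand of the gene, with matches to the searched motifs in capitals.
TIMP1, chrX:47582186-47582435, plus strand: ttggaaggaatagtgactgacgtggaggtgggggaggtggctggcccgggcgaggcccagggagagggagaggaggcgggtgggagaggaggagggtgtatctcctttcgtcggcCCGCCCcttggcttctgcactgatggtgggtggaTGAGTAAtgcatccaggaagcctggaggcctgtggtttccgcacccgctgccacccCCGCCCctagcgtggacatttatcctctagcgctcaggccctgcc
MMP14, chr14:22836335-22836584, plus strand: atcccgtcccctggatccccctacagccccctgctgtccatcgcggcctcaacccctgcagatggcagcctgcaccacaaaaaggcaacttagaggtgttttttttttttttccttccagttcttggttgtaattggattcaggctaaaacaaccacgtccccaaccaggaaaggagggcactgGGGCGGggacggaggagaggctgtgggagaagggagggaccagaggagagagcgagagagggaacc
MMP10, chr11:102780629-102780878, minus strand: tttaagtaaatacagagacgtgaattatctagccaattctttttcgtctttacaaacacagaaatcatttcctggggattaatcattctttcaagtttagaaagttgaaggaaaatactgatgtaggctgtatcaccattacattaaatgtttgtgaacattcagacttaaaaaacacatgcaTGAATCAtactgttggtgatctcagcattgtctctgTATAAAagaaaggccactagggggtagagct

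The motifs searched on both strands were TGANTCA and the related TGAGTAA (letters bound by AP-1 factors), GGGCGG (letters bound by SP1) and TATAAA (the TATA box), and no matches overlapped in the windows shown. MMP10 held TGANTCA with its first base 67 bases before the start and TATAAA 31 bases before it, and it had a GC content of 34.4%. TIMP1 held TGAGTAA 101 bases before the start and GGGCGG on the opposite strand 135 and 45 bases before it, with a GC content of 64.8%. MMP14 held GGGCGG 66 bases before the start and no TATAAA, with a GC content of 56.8%. MMP15 and TIMP3 each held 5 matches to GGGCGG and none to the other motifs. Among 35116 promoters of the same length, 6.57% held TGANTCA, 2.21% TGAGTAA, 42.6% GGGCGG and 10.7% TATAAA.

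Levels can be compared between genes per transcript length, for which the deposited FPKM values (fragments scaled by transcript length and library size) were used. Over the 6 libraries TIMP1 was highest, at a mean of 136.6 FPKM ± 18.8 (SD, n = 6). TIMP2 and MMP1 followed at 47.8 ± 5.07 and 46.3 ± 7.7 FPKM, and their ranges overlapped, with TIMP2 above MMP1 in 4 of 6 libraries. MMP14 came next at 15.0 ± 0.656 FPKM, with no overlap with MMP1 above it or TIMP3 below it. TIMP3 was at 7.42 ± 0.922 FPKM and MMP2 at 5.5 ± 0.873 FPKM, with overlapping ranges but TIMP3 above MMP2 in 6 of 6 libraries. MMP9 and MMP15 also overlapped, at 1.49 ± 0.491 and 1.04 ± 0.214 FPKM. MMP3 at 0.155 FPKM and MMP10 at 0.0533 FPKM closed the order, also overlapping. The transcript length implied by each count and FPKM differed by at most 1.07-fold between libraries for all of these genes but MMP10, where it differed by 1.3-fold.

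**Figure D1:**
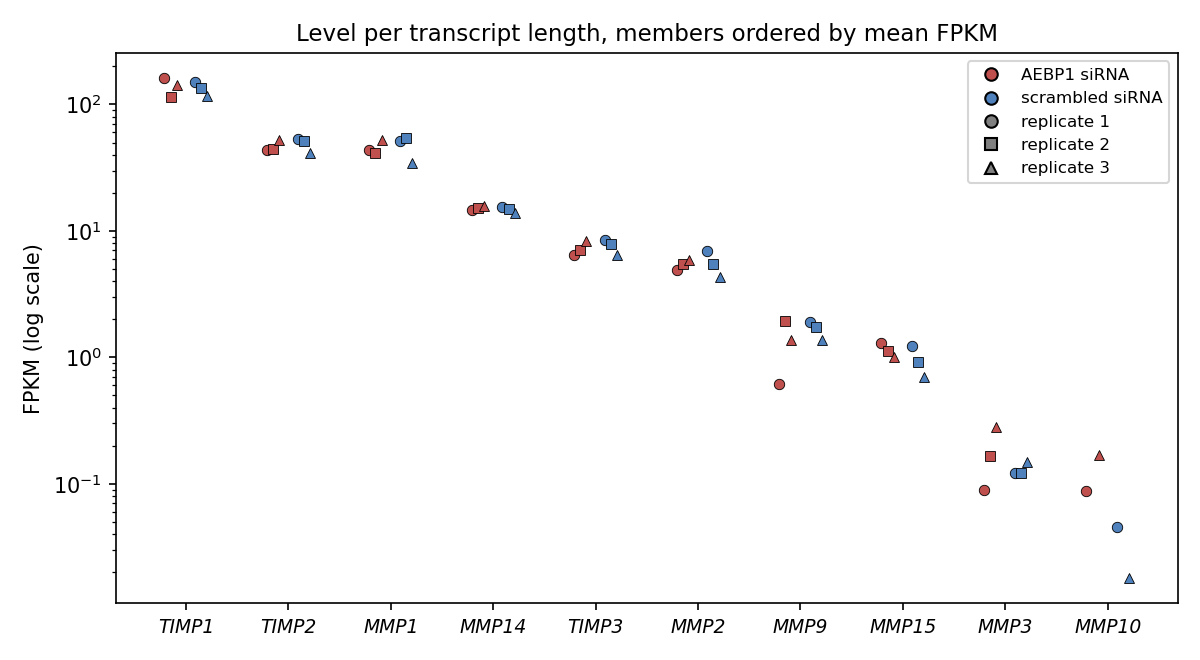
FPKM of each MMP and TIMP on a log axis, 1 point per library, with AEBP1 siRNA libraries in red left of scrambled siRNA libraries in blue, and genes ordered by their mean over 6 libraries. MMP10 was at 0 in AEBP1 siRNA 2 and scrambled 2, which a log axis cannot show; TIMP1 lies above all others in every library.

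The comparison asks what an AEBP1 siRNA does to the transcripts of these proteases and inhibitors. No gene among the 10 passed the test between the labelled groups. In bulk RNA, fewer cells of a type and less RNA per cell cannot be told apart. Of the 10, 9 passed the filter on low counts, and 0 of these 9 had an adjusted p under 0.05 by edgeR's quasi-likelihood test, where 0.00615% of all 16250 tested genes (1 gene) did. The unadjusted p was under 0.05 for 0 of the 9, against 1.33% of all tested genes. DESeq2 called 0 of the 9, against 0.0369% of all genes tested, and limma-voom 0 of the 9, against 0.0123%. CPM values of the groups overlapped for all 10 genes, whereas 5.93% of tested genes had groups that did not overlap. Of the 9 estimates 4 were above 0 and 5 below, where 49.4% of all tested genes were above 0, with a median log2 fold change of -0.038, against -0.0023 over all tested genes. By edgeR all 9 genes had an adjusted p of 0.991. Exact two-sided permutation tests of the CPM values gave p from 0.4 to 0.9 over the 10 genes, where 3 against 3 libraries cannot go below 0.1.

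**Figure D2:**
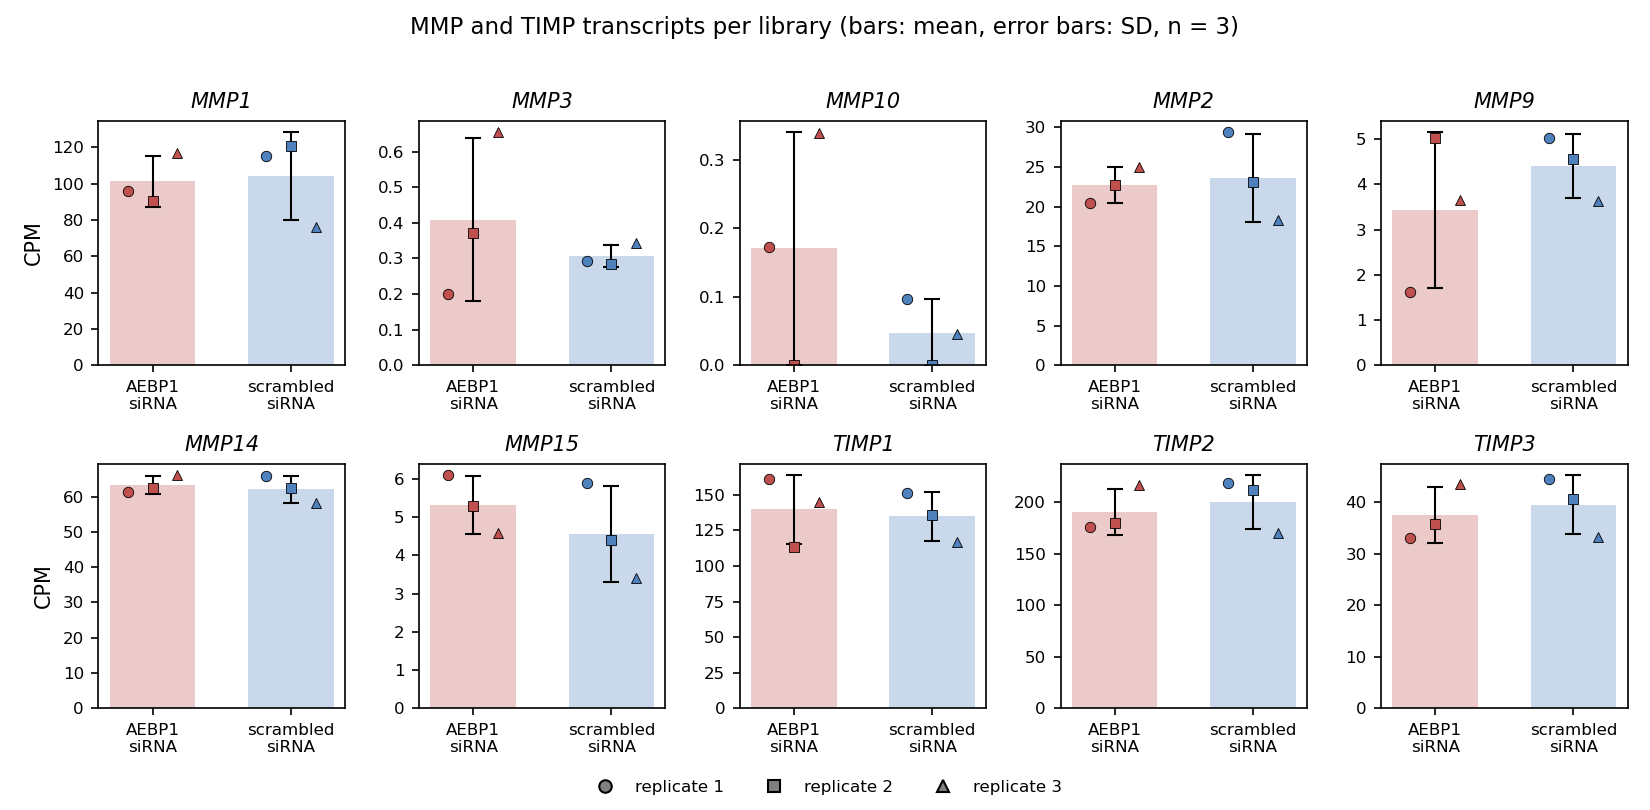
CPM of each gene in each library, with AEBP1 siRNA libraries in red left of scrambled siRNA libraries in blue, bars for the mean of 3 libraries and error bars for the SD (cut at 0 for MMP10). The points of the groups overlap in all 10 panels; MMP9 shows AEBP1 siRNA 1 at 1.61 CPM, below the other 5 libraries.

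MMP1, the interstitial collagenase that makes the first cut in fibrillar collagen, was the most abundant MMP and took 62.8% to 70.2% of the summed FPKM of the 7 MMPs. It had 96.3, 90.7 and 117 CPM in AEBP1 siRNA 1, 2 and 3, against 115, 121 and 76.4 CPM in scrambled 1, 2 and 3. The lowest and the highest value both belonged to scrambled libraries, so the AEBP1 siRNA values lay inside their range. Means were 101.4 CPM ± 14.0 in AEBP1 siRNA libraries and 104.1 CPM ± 24.2 in scrambled libraries (SD, n = 3 each). The log2 fold change of MMP1 was -0.04 (SE 0.182, 95% interval -0.46 to 0.38), an interval from 0.728-fold to 1.3-fold.

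MMP3 and MMP10, stromelysins that cut proteoglycans and fibronectin and can activate other precursor MMPs, were close to the detection limit. MMP3 had 7, 14 and 27 counts in AEBP1 siRNA 1, 2 and 3, against 12, 14 and 15 counts in scrambled 1, 2 and 3. The exact 95% Poisson intervals of the extreme counts were 2.81 to 14.4 for 7 counts and 17.8 to 39.3 for 27 counts, which cover counting error only. Its log2 fold change was 0.43 (SE 0.551, 95% interval -0.84 to 1.69), and it was -0.09 without AEBP1 siRNA 3. MMP10 had 6, 0 and 14 counts in AEBP1 siRNA libraries, against 4, 0 and 2 counts in scrambled libraries, and did not pass the filter. Taking 3 counts as the most that a count of 0 allows gives a limit of 0.0798 CPM in AEBP1 siRNA 2 and 0.061 CPM in scrambled 2, while the exact two-sided 95% Poisson interval of 0 counts reaches 3.69 counts. Fitted with no filter, MMP10 had a log2 fold change of 1.8 with a 95% interval of -1.96 to 5.57 (edgeR adjusted p = 0.993). No difference in MMP10 was detected, and with an interval this wide neither its size nor its direction could be told.

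MMP1, MMP3 and MMP10 lie beside each other on chromosome 11, in a row of 9 MMP genes, and only MMP1 was abundant there. In RefSeq order the summed counts over the 6 libraries were 32 for MMP7 (matrilysin), 0 for MMP20, MMP27 and MMP8, 26 for MMP10, 25615 for MMP1, 89 for MMP3, 0 for MMP12 and 8 for MMP13. MMP8 and MMP13 are the other secreted collagenases, so nearly all transcripts of this enzyme class in these libraries came from MMP1. The direct neighbours of MMP1 had mean levels of 0.0533 FPKM (MMP10) and 0.155 FPKM (MMP3), beside 46.3 FPKM for MMP1.

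MMP2 and MMP9 are the gelatinases, which digest denatured collagen and basement membrane collagen. MMP2 had 20.4, 22.7 and 24.9 CPM in AEBP1 siRNA 1, 2 and 3, against 29.3, 23.1 and 18.3 CPM in scrambled 1, 2 and 3. Scrambled libraries again held both the lowest and the highest value. Its log2 fold change was -0.06 (SE 0.179, 95% interval -0.47 to 0.35). MMP9 had 1.61, 5.02 and 3.66 CPM in AEBP1 siRNA libraries, against 5.02, 4.57 and 3.63 CPM in scrambled libraries. The low value of AEBP1 siRNA 1, the library that stood apart, came from 56 counts, and the other 5 libraries had 151 to 225; the part of that library's other differences in this value was not tested. The log2 fold change of MMP9 was -0.36 (SE 0.368, 95% interval -1.2 to 0.49), and without AEBP1 siRNA 1 it was -0.02.

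MMP14 and MMP15 are anchored in the cell membrane, and MMP14 is known for activating the MMP2 precursor at the cell surface. MMP14 was the steadiest of these genes, at 61.2, 62.3 and 66.0 CPM in AEBP1 siRNA 1, 2 and 3, against 65.7, 62.4 and 58.1 CPM in scrambled 1, 2 and 3. Its highest library was 1.14-fold above its lowest. The log2 fold change was 0.03 (SE 0.0919) and the 95% interval of -0.18 to 0.24 is the narrowest of the 9, from 0.88-fold to 1.18-fold. MMP15 had 6.1, 5.29 and 4.58 CPM in AEBP1 siRNA libraries, against 5.89, 4.41 and 3.4 CPM in scrambled libraries. The group means of 5.32 CPM ± 0.761 and 4.57 CPM ± 1.25 (SD, n = 3 each) gave a log2 fold change of 0.22 (SE 0.233, 95% interval -0.32 to 0.76). Without scrambled 3, where MMP15 was lowest, the estimate was 0.05, and without scrambled 1 it was 0.44.

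TIMP1, a secreted inhibitor and a common marker of fibrosis, had 161, 114 and 145 CPM in AEBP1 siRNA 1, 2 and 3, against 152, 136 and 117 CPM in scrambled 1, 2 and 3. The highest and lowest of the 6 values were both from AEBP1 siRNA libraries. Its log2 fold change was 0.05 (SE 0.152, 95% interval -0.30 to 0.40), and it was -0.06 without AEBP1 siRNA 1 and 0.18 without AEBP1 siRNA 2. TIMP2, which inhibits MMP2 and also bridges it to MMP14 for activation, had 176, 179 and 216 CPM in AEBP1 siRNA libraries, against 218, 211 and 170 CPM in scrambled libraries. In each group 1 library sat near the level of most of the other group, namely AEBP1 siRNA 3 and scrambled 3. The log2 fold change of TIMP2 was -0.07 (SE 0.133, 95% interval -0.37 to 0.24). TIMP3, which binds to the matrix and also inhibits ADAM proteases, had 33.1, 35.8 and 43.5 CPM in AEBP1 siRNA libraries, against 44.5, 40.6 and 33.2 CPM in scrambled libraries. It showed the same placement of replicate 3, with a log2 fold change of -0.07 (SE 0.148, 95% interval -0.41 to 0.27).

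The ratio of inhibitor to protease transcripts differed between the groups by less than the SD within them. Summed FPKM of the 3 TIMPs was 2.81 ± 0.365 times that of the 7 MMPs in AEBP1 siRNA libraries and 2.74 ± 0.234 times in scrambled libraries (SD, n = 3 each). The highest ratio, 3.22, was in AEBP1 siRNA 1, where TIMP1 took 76.4% of TIMP FPKM against 68.9% to 70.9% in the other 5 libraries. The FPKM ratio of MMP1 to TIMP1 was 0.333 ± 0.0536 in AEBP1 siRNA libraries and 0.348 ± 0.0523 in scrambled libraries. For the surface complex of MMP14, TIMP2 and MMP2, the ratio of MMP14 to TIMP2 was 0.325 ± 0.0238 in AEBP1 siRNA libraries and 0.305 ± 0.0243 in scrambled libraries. The ratio of MMP2 to TIMP2 was 0.116 ± 0.00556 in AEBP1 siRNA libraries and 0.114 ± 0.0147 in scrambled libraries. These ratios share members and were not tested.

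MMP1, MMP2, MMP14, TIMP2 and TIMP3, or 5 of the 9 genes tested, had their 3 lowest CPM values in AEBP1 siRNA 1, AEBP1 siRNA 2 and scrambled 3. AEBP1 had its 3 lowest values in the same libraries, as had 9.8% of all 16250 tested genes. Scrambled 3 was the lowest library for MMP1, MMP2, MMP14, MMP15 and TIMP2. It was the lowest for 16.9% of all tested genes. AEBP1 siRNA 1 was the lowest for MMP3, MMP9 and TIMP3 and the highest for MMP15 and TIMP1, or 3 and 2 of the 9 genes, where it was the lowest for 32.7% and the highest for 32.2% of all tested genes. Over the 6 libraries the range of log2 CPM was 1.61 for MMP9, 1.49 for MMP3, 0.83 for MMP15, 0.68 for MMP2, 0.66 for MMP1 and 0.18 for MMP14. Its median was 0.46 over the 6 genes that averaged at least 5 CPM (MMP1, MMP2, MMP14 and the TIMPs), against 0.43 over the 11594 tested genes above that mean.

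**Figure D3:**
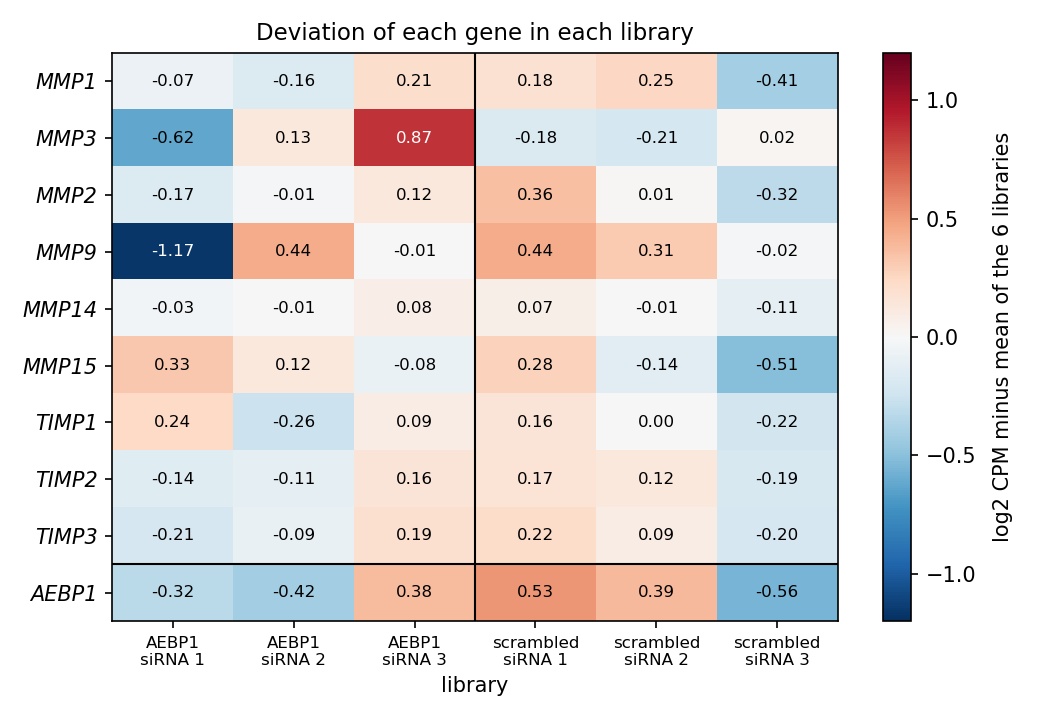
Log2 CPM of each gene minus its mean over the 6 libraries, with AEBP1 siRNA libraries in the 3 columns left of the line and scrambled siRNA libraries right of it, and AEBP1 in the bottom row. MMP1, MMP2, TIMP2 and TIMP3 are above their mean in AEBP1 siRNA 3 and scrambled 1 and 2 and below it in the other 3 libraries, as is AEBP1. MMP2 is close to its mean in AEBP1 siRNA 2 (-0.01) and scrambled 2 (0.01).

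With replicate 3 of both groups left out, the libraries in which AEBP1 goes against the labels, the estimates of 5 of the 9 genes moved further below 0. The largest was MMP9, at -0.53 (SE 0.51), with AEBP1 siRNA 1, its lowest library, still in the fit. The log2 fold change was -0.34 (SE 0.128) for MMP1, -0.28 (SE 0.184) for MMP2, -0.27 (SE 0.129) for TIMP2 and -0.30 (SE 0.138) for TIMP3, beside -0.83 (SE 0.138) for AEBP1. By edgeR these 5 members had an adjusted p of 0.967 and AEBP1 one of 0.378, and 0.00614% of 16285 genes (1 gene) were called. TIMP1 was then at -0.07, MMP14 at -0.05, MMP15 at 0.15 and MMP3 at -0.0020 (SE 0.744). Leaving out AEBP1 siRNA 1 too gave 249 called genes of 17050, or 1.46%, and 0 of the 9 members. MMP1 was closest, at -0.38 (edgeR adjusted p = 0.105), followed by TIMP1 at -0.34 (0.189) and TIMP2 at -0.26 (0.271). In that fit AEBP1 siRNA 2 stands alone, and its variation is taken to equal that of the scrambled libraries. The libraries were picked with the AEBP1 levels known, so the AEBP1 estimates of both fits follow from that choice. MMP1, MMP2, MMP14, TIMP2 and TIMP3 had their 3 lowest values in the same libraries as AEBP1. Their lower estimates in both fits therefore follow from that choice too and are no separate evidence. Of these, MMP14 stayed near 0, at -0.05 and -0.04 in the 2 fits. TIMP1, whose 3 lowest libraries were not those of AEBP1, was at -0.07 and -0.34. The share of all genes that moved the same way was not computed.

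**Figure D4:**
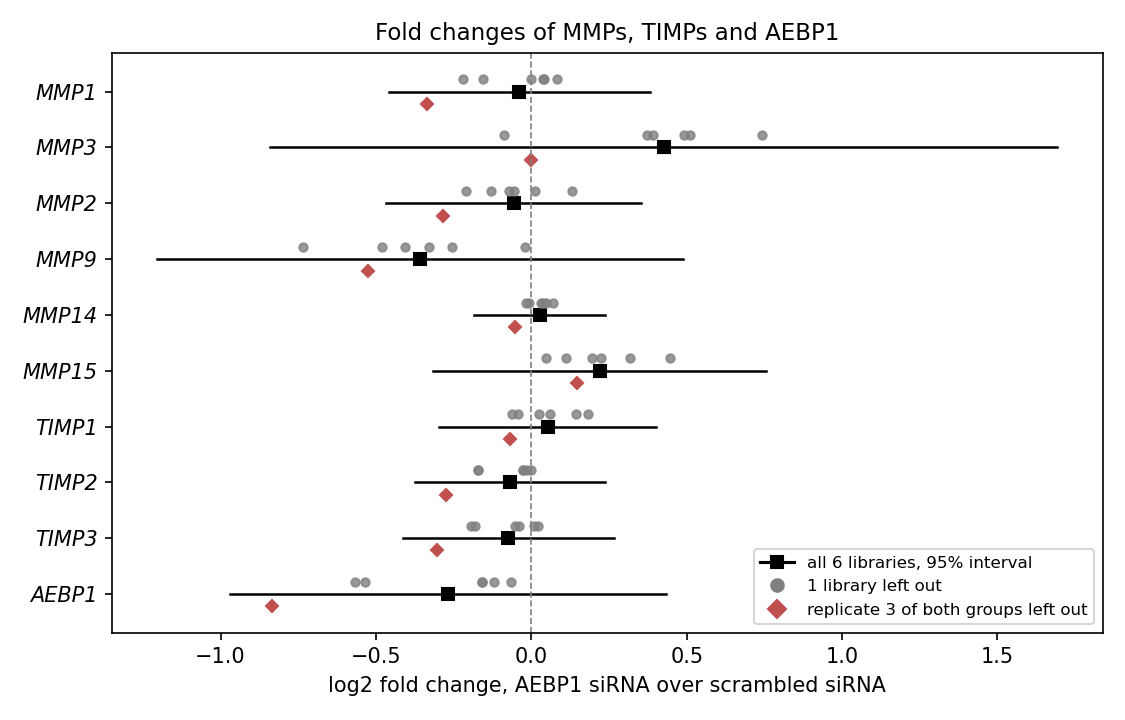
Log2 fold change of AEBP1 siRNA over scrambled siRNA libraries for the 9 genes tested and AEBP1, with squares and lines for the edgeR estimate and 95% interval from 6 libraries, grey points for fits without 1 library and red diamonds for fits without replicate 3 of both groups. All intervals include 0; MMP3 and MMP9 have the widest and MMP14 the narrowest.

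Other genes of matrix breakdown were read from 6 lists, and 0 of their 95 tested genes were called by edgeR or DESeq2. Of 17 other MMPs and TIMP4, 8 were tested, and 2 had an unadjusted p under 0.05, against 1.33% of all tested genes. MMP23B, a membrane MMP, had 1.26 CPM ± 0.151 in AEBP1 siRNA libraries and 0.613 CPM ± 0.102 in scrambled libraries (SD, n = 3 each), and its groups did not overlap, as was so for 5.93% of all tested genes. The log2 fold change of MMP23B was 1.04 (SE 0.326), with an adjusted p of 0.991 by edgeR. MMP23B has a near-identical pseudogene copy that can share its reads, so its level is uncertain. MMP28, a secreted MMP named epilysin, had 0.527 CPM ± 0.232 and 0.14 CPM ± 0.161 in the same order, a log2 fold change of 1.85 (SE 0.802, edgeR adjusted p = 0.991) with overlapping groups. MMP19 was the most abundant of that list, at 24.2 and 23.2 CPM.

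Of 27 ADAM and ADAMTS proteases 21 were tested, with a median log2 fold change of -0.083, 7 estimates above 0 and 14 below. Without AEBP1 siRNA 1 the median was 0.05 and 6 estimates were below 0. ADAM9, a membrane sheddase, was the most abundant, at 201.0 CPM in AEBP1 siRNA libraries and 212.9 CPM in scrambled libraries. The smallest unadjusted p-values in the list were those of ADAMTS14, a procollagen processing enzyme, at 1.28 and 2.01 CPM, and ADAMTS9, at 0.718 and 0.425 CPM. Of 11 genes of plasminogen activation, 10 were tested with a median of 0.061, and PLG was at 0 counts. PLAUR, the urokinase receptor, was at 111.7 CPM ± 18.7 in AEBP1 siRNA libraries and 97.9 CPM ± 2.58 in scrambled libraries, and SERPINF2, the plasmin inhibitor, at 0.915 and 0.659 CPM. ENO1, a glycolytic enzyme that also binds plasminogen, had the highest level, at 1441 and 1328 CPM.

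Of 19 activators, partners and other inhibitors of MMPs 15 were tested, with a median of 0.023. LRP1, a receptor that clears MMPs and TIMPs from outside the cell, had 88.9, 160 and 182 CPM in AEBP1 siRNA 1, 2 and 3, against 168, 195 and 168 CPM in scrambled 1, 2 and 3. AEBP1 siRNA 1 lay below the other 5 libraries, and the log2 fold change of LRP1 was -0.30 with it and -0.05 without it. CD151, a tetraspanin, had 241.7 and 220.1 CPM, and BSG, an inducer of MMPs also called EMMPRIN, was the most abundant at 390.7 and 374.8 CPM. Among 20 transcription factors of MMP promoters, all tested, the median was 0.027. JUN, a subunit of AP-1, was the most abundant, at 465.8 and 436.2 CPM, with FOSL1, another AP-1 subunit, at 338.6 and 300.0 CPM and MAFK at 70.0 and 61.1 CPM. Of 22 collagens and other substrates 21 were tested, with a median of -0.11 and 17 estimates below 0. Over all tested genes 50.6% of estimates were below 0. AEBP1 siRNA 1 had the lowest summed level of this list, 6861 CPM, where the other AEBP1 siRNA libraries had 7930 and 9300 CPM and the scrambled libraries 8564 to 9311 CPM. Without it the median was 0.01 and 10 of 21 estimates were below 0. FN1 (fibronectin) had 1290, 1980 and 2739 CPM in AEBP1 siRNA 1, 2 and 3, against 2446, 2774 and 2363 CPM in scrambled 1, 2 and 3. FN1 had a log2 fold change of -0.34 with AEBP1 siRNA 1 and -0.10 without it. COL4A2 had 834.7 CPM in AEBP1 siRNA libraries and 915.6 CPM in scrambled libraries. AEBP1 siRNA 1 was the highest library for 10 and the lowest for 5 of the 17 genes named from the lists. It was the highest for 32.2% and the lowest for 32.7% of all tested genes. The 17 genes were named by a small p or a high level, so they are no random draw to set against these shares. All genes named from these lists had an adjusted p of 0.991 by edgeR.

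The genes most like TIMP1 and MMP9 in their course over the 6 libraries were listed as a description. TIMP1 was taken as the most abundant of the 10 genes, and the highest Pearson r of log2 CPM among 11066 genes were those of IK (0.995), NUP93 (0.992) and CHCHD2 (0.992). All 3 were highest in AEBP1 siRNA 1, as TIMP1 was. MMP9 had the widest range, and RABEP1 (0.995), PDE1C (0.994) and COG3 (0.994) were most like it, each lowest in AEBP1 siRNA 1. With 6 libraries such values are common, and 619 genes had r above 0.9 with TIMP1 and 602 with MMP9.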

How the data were processed

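RNA of LX-2 cells was sequenced from libraries made of 1 μg of total RNA with an mRNA kit, per the labels' protocols. The authors deposited raw counts and FPKM values per gene or assembled locus, per the file headers. The submitters' processing notes name hg19 as genome build. Filters, the aligner, the read counter with its strand setting and the gene annotation were not given in the sources used here. Lines with text fragments and no values (17) were left out. Groups came from the labels. No library was a copy of another: the smallest chi-square of a pair was 7.76 per degree of freedom, between scrambled 3 and AEBP1 siRNA 2.

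Counts were filtered with filterByExpr, scaled by trimmed mean of M values and tested by edgeR 4.0.16 (quasi-likelihood, R 4.3.3) in a model of group alone. P-values were adjusted by Benjamini-Hochberg over all 16250 genes tested, and an adjusted p under 0.05 was called. The standard error is the log2 fold change over the square root of F. CPM are counts per scaled library of 1000000. Limma 3.58.1 and DESeq2 1.42.0 served as alternatives. The edgeR script was tested on simulated counts.

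The members, the 6 pathway lists and the alternatives were chosen with earlier results of these data known. All members and AEBP1 were named. From each list, the 2 genes with the smallest unadjusted p and the one with the highest mean CPM were named, and for TIMP1 (highest mean FPKM) and MMP9 (widest log2 CPM range among members with a mean of at least 1 CPM), the 3 genes with the highest Pearson r. JUND and COL6A3 were named after their values were seen.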

Additional observations from a re-analysis of the deposited data

How the results depend on the processing

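The count of called members was 0 under all 17 alternative fits and at an adjusted p under 0.01, and the smallest adjusted p of a member was 0.105. The counts of all called genes, 1 with all libraries, were 2 with the replicate block, 3 with no filter, 6 with DESeq2, 2 with limma-voom, 3 with limma on log2(FPKM + 0.1), 0 at an adjusted p under 0.01 and 0 to 2 with single libraries left out. In the fit lacking both replicates 3 and AEBP1 siRNA 1, 249 of 17050 genes were called, or 1.46%. Of the 98 pathway list genes in that fit 2 were called, JUND (-0.89) and COL6A3 (-0.57), and AEBP1 was at -0.884. AEBP1 siRNA 2 stands alone there, and the libraries were picked with the AEBP1 levels known, so these calls are no test of any gene. The AEBP1 value follows from leaving out the libraries whose AEBP1 level goes against the labels.

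Of the log2 fold changes of members and AEBP1 under alternatives, 148 kept their sign and side of the threshold, 1 passed the threshold through that choice of libraries (AEBP1) and 18 changed sign, and for these the cause was not tested. With single libraries left out, they ran from -0.218 to 0.0827 for MMP1, -0.209 to 0.13 for MMP2, -0.0891 to 0.743 for MMP3, -0.0187 to 0.0694 for MMP14, -0.0608 to 0.181 for TIMP1 and -0.196 to 0.0223 for TIMP3. MMP9, MMP15, TIMP2 and AEBP1 kept their sign there, from -0.735 to -0.0218, 0.0476 to 0.445, -0.173 to -0.000887 and -0.567 to -0.066. Without replicate 3 of both groups MMP3 was at -0.0020, MMP14 at -0.0515 and TIMP1 at -0.0682. Lacking AEBP1 siRNA 1 too, the fit put MMP9 at 0.0693, MMP14 at -0.0377 and TIMP1 at -0.339.

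For libraries with the same replicate number, deviations from the group means had correlations of 0.0961, -0.00776 and -0.102 for replicates 1, 2 and 3. The library of the same number was the best match in both directions for replicate 1, but not for replicates 2 and 3. With 3 libraries per group, these values cannot settle whether libraries were paired. The replicate block changed no call of a member, with MMP1 at -0.0208 and TIMP1 at 0.0458. MMP10 is given with no filter only, and MMP3, MMP9 and MMP15 dropped out at a mean of at least 5 CPM. At 7 to 27 counts for MMP3 and 0 to 14 for MMP10, counting error limits both genes. Named genes and medians of the pathway lists were also read without AEBP1 siRNA 1, an alternative chosen after seeing the data; 3 of 17 genes changed sign, with ADAM9 at 0.0191, ENO1 at -0.0169 and BSG at -0.0302.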
